A study of Rattus norvegicus with 56 samples.

Results

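Repetitive transcranial magnetic stimulation (rTMS) was applied to primary cultures of rat hippocampal neurons, and gene expression in the stimulated dishes soon after the pulses was compared with expression 1 and 2 days later. The comparison took 27 of the 56 arrays of the series. These were all good arrays from cultures given 1 Hz stimulation or intermittent theta burst stimulation (iTBS) and collected 0 or 2 h (early, 13 arrays) or 24 or 48 h (late, 14 arrays) after the end of stimulation. The early arrays were 3 of 1 Hz at 0 h, 2 of 1 Hz at 2 h, 4 of iTBS at 0 h and 4 of iTBS at 2 h. The late arrays were 3 of 1 Hz at 24 h, 4 of 1 Hz at 48 h, 3 of iTBS at 24 h and 4 of iTBS at 48 h. One further array of 1 Hz at 2 h was left out because the scanner software marked its grid as bad, and its values had a correlation of -0.01 over probes with the mean of the 55 other arrays.

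All dishes held hippocampal cells of E18 Sprague-Dawley rat embryos in Neurobasal medium with B27 supplement, and each was set on an inverted coil in an insulated incubator and then returned to its home incubator. Sham dishes stood in the same incubator with the coil moved away, and 14 sham arrays (8 early, 6 late) served for comparison. All media held penicillin, streptomycin and amphotericin B, and the labels name no transgene. The arrays came in 4 numbered sets, here called number series A (1 to 18), B (19 to 36), C (37 and above) and D (D prefix), with 2, 3, 4 and 4 early arrays and 3, 3, 4 and 4 late arrays. The stimulated arrays sat on 7 slides. Slides 1, 3 and 5 held only early arrays of these, slides 4 and 7 only late arrays, and slides 2 and 6 held both. Within series B, C and D no slide held arrays of both phases, so slide and phase cannot be told apart there. The labels do not say whether arrays of a group came from separate cultures, so the p-values measure the spread between these arrays, which may be technical. A late dish was collected 1 or 2 days after stimulation. The age of each dish in culture is not given, so time after stimulation and age in culture cannot be told apart.

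Labelled cRNA was hybridised to 1-colour oligonucleotide arrays. Values are scaled log2 signals, in which each array was brought to the same mean and the same spread. A difference of 1 is therefore close to a doubling, and levels are compared only between arrays for 1 probe. Between 66.1% and 81.8% of probes per stimulated array were well above background. The 4 late arrays of series D had the highest shares (76.3% to 81.8%, against 71.8% to 75.1% in early series D), and the part of this in the results was not tested. The 10 neuron markers listed were well above background on all 27 arrays, among them the tubulin gene Tubb3, and so was Gfap, which marks astrocytes.

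Late differed from early at 6156 of 35699 probes tested (17.2%; limma, adjusted p below 0.05), of which 3945 (11.1%) were higher late and 2211 (6.19%) were lower late. With 1 probe per gene, 2136 of 13889 genes (15.4%) were higher late and 839 (6.04%) were lower late. The changes were mostly modest. A change of at least 2-fold was seen for 373 genes (2.69%) higher late and 25 genes (0.18%) lower late. At probe level 2.08% changed by at least 2-fold, and of genes 2.87%. Without series D the count of called probes fell to 773, of which 618 were higher and 155 lower late. Without the array of 1 Hz at 2 h of series D it fell to 3188, and without series as a block to 1870. Values are therefore given by series where the series differ. A difference within a series is its late mean minus its early mean, without adjustment for protocol or time. In series A the early arrays were all iTBS and the late arrays were of both protocols, so its differences mix protocol with time.

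Neurons in culture switch on immediate-early genes such as Fos and Egr1 within minutes of electrical activity, through calcium and kinase signalling onto factors already bound at their promoters. Over longer times cultures also mature and change their supply of fuel: PPAR receptors, when fatty acids are plentiful, induce genes for fatty acid oxidation. Interferon-regulated genes respond through IRF and STAT factors, and TFEB controls many genes of the lysosome, which degrades proteins and lipids.

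Promoter stretches of 9 genes that were higher late are shown first, because they belong to the interferon and lysosomal groups described next. The core of the interferon-stimulated response element, GAAA and GAAA with any 2 bases between them, was searched on both strands in 300-base RefSeq promoters (250 bases before and 50 after the start, build GRCr8). Of the 23 genes of the interferon and class I list with a promoter found, 18 held it in a promoter, against 4.12% of all 27457 genes. The pattern and the list were both chosen after the values were seen. Capitals mark the match, which in Irf7 and Oasl2 is read on the other strand.
Ifitm3, chr1:205541773-205541822, minus strand: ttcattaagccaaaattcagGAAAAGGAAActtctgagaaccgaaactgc
Irf7, chr1:205800063-205800112, minus strand: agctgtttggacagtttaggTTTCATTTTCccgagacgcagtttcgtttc
Oasl2, chr12:47383307-47383356, minus strand: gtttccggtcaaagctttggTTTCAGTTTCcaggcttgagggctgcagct
Parp14, chr11:78408038-78408087, plus strand: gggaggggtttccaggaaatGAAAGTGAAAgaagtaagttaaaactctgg
Nmi, chr3:56848614-56848663, minus strand: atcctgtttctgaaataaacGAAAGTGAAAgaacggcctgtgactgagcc

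The E-box CACGTG reads the same on both strands and forms the centre of the element bound by TFEB. It was present in a promoter of 8 of 25 genes of the lysosomal list, against 7.08% of all genes. The E-box with GT before it and AC after it was in 0 of the 25, against 0.28% of all genes. It was added after the values were seen, as was the lysosomal list. A match describes the letters only and was not tested for binding. The 4 shown belong to lysosomal genes that were higher late, the sphingomyelinase-like Smpdl3a, the membrane protein Cln3, the galactosidase Glb1 and the glucosidase Gaa, with the E-box in capitals.
Smpdl3a, chr20:37678880-37678925, plus strand: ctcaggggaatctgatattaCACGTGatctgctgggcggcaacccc
Cln3, chr1:190597942-190597987, minus strand: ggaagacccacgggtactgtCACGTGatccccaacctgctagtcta
Glb1, chr8:122963598-122963643, plus strand: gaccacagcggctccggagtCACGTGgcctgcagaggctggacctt
Gaa, chr10:105028268-105028313, plus strand: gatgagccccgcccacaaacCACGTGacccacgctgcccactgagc

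Genes of fatty acid oxidation and lipid droplets were higher late. Of 30 genes on this list, 24 were higher and none lower (15.4% and 6.04% of all genes), with a median change of 0.78 on the log2 scale against 0.03 over all genes. The list was assembled after the values were seen, so its count is a description. Astrocyte markers, described further on, were also higher late. Plin4, a lipid droplet coat protein, ran from -3.52 to 0.70 early (median -0.20) and from -1.24 to 3.19 late (median 1.56). The early and late ranges overlapped across series, while within each series every late array was above every early array. It was well above background on 9 of 13 early arrays and on all 14 late arrays. Plin4 was 4.87-fold higher late (2.28 ± 0.17 on the log2 scale, ± SE of the fit, adjusted p = 7.13e-07).

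Angptl4, a secreted inhibitor of lipoprotein lipase and a PPAR target, showed how far the series stood apart. On early arrays it read 1.40 to 2.30 in series A and B and 5.43 to 5.80 in series C and D. Late arrays lay at 3.30 to 6.25 in series A and B and at 6.48 to 7.73 in series C and D. Late was thus above early within every series, by 3.37 in series A, 3.49 in B, 1.30 in C and 2.00 in D, and the fitted change was 2.25 ± 0.26 (adjusted p = 2.06e-05). Pdk4, the kinase that restrains pyruvate dehydrogenase, was well above background on 0 of 13 early and 4 of 14 late arrays, and was at least 1.21-fold higher late (adjusted p = 0.00163). Such a bound sets the late mean against the lowest signal that counts as well above background on the early arrays. The mitochondrial entry and first-step enzymes Cpt1a and Acadl, named after their values were seen, changed by 0.88 and 0.86. Without series D, 11 of the 30 genes were called higher, beside 618 of all 35699 probes.

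Interferon-response and class I antigen presentation genes were higher late at 23 of 31 tested, with none lower and a median change of 1.04, the largest median of the 47 lists examined. This list too was assembled after the values were seen, and 15.4% of all genes were higher late. Trim34, an interferon-induced ubiquitin ligase family member, read -2.76 to 1.31 early (median 0.46) and 1.08 to 2.44 late (median 1.84). Only early series C arrays reached into the late range. The change was 1.69 ± 0.26 (adjusted p = 0.000253). Irf7, the transcription factor that amplifies type I interferon signalling, was well above background on 8 of 13 early arrays and on all 14 late arrays. It read -3.97 to -0.71 early (median -1.43) and -1.81 to 0.04 late (median -0.28), and it was 2.96-fold higher late (adjusted p = 0.000436). The early series A and B arrays were the lowest, from -3.97 to -2.67.

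Ifitm3, a membrane protein that blocks virus entry, did not move alike in all series. Its late arrays were above its early arrays in series A, B and D (differences of 3.06, 3.38 and 1.79), whereas in series C the early arrays read -2.18 to -1.63 and the late arrays -3.06 to -1.87. This difference between series passed its own test (adjusted p = 0.00443 for series by phase), and the fitted change was 1.61 ± 0.42 (adjusted p = 0.0129), with 9 of 13 early and 13 of 14 late arrays well above background. Ifi27l2b, an interferon-inducible gene, rose by 1.65 ± 0.22 (adjusted p = 5.76e-05). Among genes printed above with their promoters, Oasl2, Parp14 and Nmi changed by 1.19, 1.11 and 1.11. Ifitm genes and the class I genes named RT1 have near-identical relatives, and how far 1 probe reads several of them was not tested. Without series D, 13 of the 31 genes were called higher, beside 618 of all 35699 probes.

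Lysosomal genes were higher late at 21 of 35 tested, with none lower and a median change of 0.35, and enzymes that conjugate glutathione or oxidise foreign compounds were higher at 17 of 24, with none lower and a median of 0.69. Both lists were assembled after the values were seen, and 15.4% of all genes were higher late. Gpnmb, a lysosomal glycoprotein found in pigment cells and phagocytes, read 1.25 to 6.59 early (median 1.98) and 2.13 to 9.17 late (median 4.84). Series D supplied the top of both ranges, at 5.93 to 6.59 early and 8.19 to 9.17 late. Gpnmb rose by 1.88 ± 0.25 (adjusted p = 5.61e-05). Ctsz, a cathepsin protease, rose by 1.41 ± 0.22 (adjusted p = 0.00027), although 5 of 13 early arrays were not well above background. Manba, the beta-mannosidase, rose by 1.10 ± 0.11 (adjusted p = 7.76e-06), from a median of 2.55 early to 3.31 late.

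Aldehyde oxidase Aox1 read -0.15 to 4.00 early (median 3.34) and 1.73 to 5.78 late (median 4.52), and the glutathione transferase Gsta1 read 2.57 to 6.24 early (median 4.98) and 3.47 to 7.64 late (median 6.39). For both genes the ranges overlapped, and series started from different levels. Within series the changes were close to one another, from 1.20 to 1.90 for Aox1 and from 1.26 to 1.74 for Gsta1, and the fitted changes were 1.57 ± 0.13 (adjusted p = 1.09e-06) and 1.43 ± 0.11 (adjusted p = 7.13e-07). The prostaglandin reductase Ptgr1 and the microsomal transferase Mgst2 rose by 1.43 ± 0.24 and 1.30 ± 0.27 (adjusted p = 0.000495 and 0.00282), with 6 and 8 of 13 early arrays well above background. Gsta1 has close relatives in its family, and their share in its signal was not tested. Without series D, 10 lysosomal and 8 detoxification genes were called higher, beside 618 of all 35699 probes.

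Astrocyte markers moved with these groups. Of 15 measured, 8 were higher late (53.3%, against 15.4% of all genes) and none lower, with a median change of 0.52. The mean level over the list ran from 5.56 to 6.42 on early arrays and from 6.18 to 7.37 on late arrays. Gfap, the astrocyte intermediate filament, read 2.04 to 5.19 early (median 3.06) and 2.89 to 7.03 late (median 4.66). Late arrays lay above early arrays within every series, and series D was highest at both times (4.59 to 5.19, then 6.44 to 7.03). Gfap was 2.93-fold higher late (1.55 ± 0.16, adjusted p = 7.48e-06). The connexin Gjb6, glutamine synthetase Glul and the water channel Aqp4 rose by 0.98 ± 0.22, 0.82 ± 0.17 and 0.69 ± 0.14 (adjusted p = 0.0051, 0.00252 and 0.00185), with Gjb6 well above background on 12 of 13 early and all 14 late arrays. More cells of a type and more RNA per cell cannot be told apart in such bulk samples, and the part of astrocyte content in the other late-high groups was not tested.

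Markers of other cells were called higher late at shares below that of all genes (15.4% higher, with 6.04% lower). Of 12 microglia markers 1 was higher late (8.33%) and none lower, with a median change of -0.01, and only 5 of the 12 were well above background on all 27 arrays. None of 8 oligodendrocyte progenitor or 10 myelin genes was called, with smallest adjusted p-values of 0.166 and 0.121. Among 15 endothelial, mural and fibroblast markers 2 were higher (13.3%) and 1 lower (6.67%), near the shares of all genes. Among 7 choroid plexus markers 2 were lower (28.6%). Of 18 cell cycle genes 2 were lower (11.1%), the replication helicase Mcm6 (-0.60 ± 0.10, adjusted p = 0.000644) and the ribonucleotide reductase Rrm2 (-0.62 ± 0.16, adjusted p = 0.0119).

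Complement and inflammation genes were higher late at 6 of 22 tested (27.3%, against 15.4% of all genes), with none lower and a median change of 0.23. Only 8 of the 22 were well above background on all 27 arrays. Serping1, the inhibitor of the first complement component, read -1.51 to 3.43 early (median 0.17) and 0.62 to 5.73 late (median 2.73). Late was above early in every series, from 0.98 in series C to 3.45 in series B, and this spread between series passed its test (adjusted p = 0.0217). Serping1 was 4.36-fold higher late (2.12 ± 0.27, adjusted p = 4.95e-05). The proteases C1r, C2 and C1s of the classical pathway rose by 1.17 ± 0.15, 1.00 ± 0.17 and 0.99 ± 0.10 (adjusted p = 4.69e-05, 0.000542 and 8.15e-06). C2 read low, at -2.63 to -0.30 early and -1.27 to 1.03 late.

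**Figure D1:**
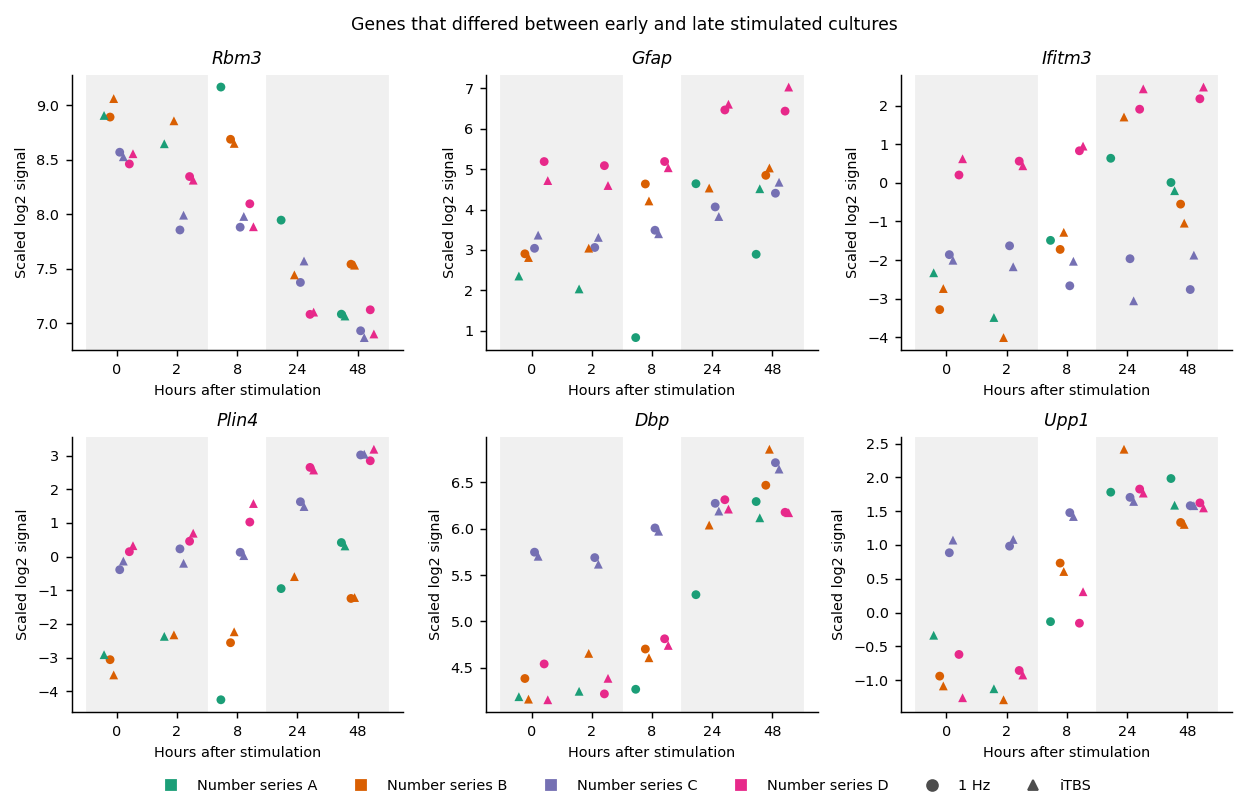
Scaled log2 signal of 6 genes (vertical axis) on each stimulated array against hours after stimulation, with colour for the number series, circles for 1 Hz and triangles for iTBS, and grey bands for the early and late times compared. Rbm3 stood at 7.86 or above at 0 and 2 h and at 7.95 or below at 24 and 48 h, while Dbp and Upp1 on early series C arrays lay above those of the other early series.

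Dbp, a clock-controlled transcription factor with a strong daily rhythm, was the 1 gene of 19 on the clock list that was higher late. That share (5.26%) was below the 15.4% of all genes, and the share lower (5.26%) was near the 6.04% of all genes. The list as a whole thus held no excess of calls. It read 4.16 to 5.75 early (median 4.39) and 5.29 to 6.86 late (median 6.24). The early arrays fell apart by series: the 4 of series C read 5.62 to 5.75, and the 9 others read 4.16 to 4.66. At 8 h the range was 4.27 to 6.01, with a median of 4.74. The fitted change was 1.51 ± 0.15 (2.85-fold, adjusted p = 5.82e-06), and it differed between series, with 0.77 in series C against 1.68 to 2.05 in the others (adjusted p = 0.00992). Cry1, a clock repressor, was lower late (-0.55 ± 0.18, adjusted p = 0.0393), though its differences within series ran from -1.34 in D to 0.24 in C. Per1 and Nr1d1, a core repressor and a nuclear receptor of the clock, did not pass (adjusted p = 0.208 and 0.0869).

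Txnip and Arrdc4, arrestins whose transcription follows glucose through the factor MondoA, were the 2 of 4 listed arrestins that were higher late. Of all genes 15.4% were higher late. Txnip read -1.01 to 4.55 early (median 3.46) and 3.22 to 5.71 late (median 4.49). Its early arrays lay at -1.01 to 1.76 in series A and B and at 2.99 to 4.55 in series C and D. The change was 1.94 ± 0.38 (adjusted p = 0.00172), with 0.41 in series C and 4.00 in series B (adjusted p = 0.00709 for series by phase). Arrdc4 rose by 1.19 ± 0.22 (adjusted p = 0.00128).

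Heat shock genes were called in either direction. Of 18 measured, 4 were higher (22.2%) and 2 lower late (11.1%), beside 15.4% and 6.04% of all genes. Their median was -0.07 and became 0.02 under quantile scaling. The small heat shock protein Hspb1 rose by 1.73 ± 0.30 (adjusted p = 0.000772), the chaperone Hspa1a by 1.13 ± 0.13 (adjusted p = 1.68e-05), its cofactor Bag3 by 1.02 ± 0.17 (adjusted p = 0.000463) and Hspa4l by 0.31 ± 0.09 (adjusted p = 0.0256). Hspa1a read 0.44 to 1.41 early (median 0.96) and 1.35 to 2.95 late (median 1.88). Hspb1 did not move alike in all series, since its late minus early difference was 0.15 in series C and 2.03 to 2.89 elsewhere (adjusted p = 0.00407).

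Other stress lists held calls mostly toward higher late, beside 15.4% of all genes higher and 6.04% lower. Of 20 hypoxia-responsive genes, 6 were higher late (30.0%), with Ankrd37 at 0.93 ± 0.18, the collagen hydroxylase P4ha1 at 0.66 ± 0.14 and the oxygen sensor Egln3 at 0.54 ± 0.10 (adjusted p = 0.00157, 0.00256 and 0.000884). The hexokinase Hk2 of the same list was lower, by -0.98 ± 0.24 (adjusted p = 0.00843). Integrated stress and unfolded protein genes were higher at 4 of 23 (17.4%), near the share of all genes, among them the ER chaperone genes Sdf2l1 (0.52 ± 0.16) and Creld2 (0.43 ± 0.14) (adjusted p = 0.0286 and 0.035). Among 14 glucocorticoid and FoxO targets 4 were higher (28.6%) and 1 lower. The repressor Bcl6 rose by 0.74 ± 0.13 (adjusted p = 0.000917), while the kinase Sgk1 changed by -0.62 ± 0.18 (adjusted p = 0.0204).

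At a few genes no late array overlapped any early array. This held for 27 genes higher late (0.194% of genes) and 4 lower late (0.0288%) that passed the test and had signal well above background throughout the brighter phase. Upp1, the uridine phosphorylase, had the largest change of these. It read -1.29 to 1.08 early (median -0.86) and 1.30 to 2.42 late (median 1.63). The 4 early series C arrays, at 0.88 to 1.08, stood nearest to the late arrays, and the other 9 early arrays read -1.29 to -0.34. Upp1 was 4.02-fold higher late (2.01 ± 0.24, adjusted p = 2.92e-05), with 0.62 in series C and 2.52 to 2.79 elsewhere (adjusted p = 0.00109).

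Impa2, an inositol monophosphatase, read -0.47 to 1.73 early and 1.86 to 3.23 late, a change of 1.80 ± 0.18 (adjusted p = 6.1e-06). Tlr2, a receptor for bacterial lipoproteins, read -1.49 to 0.47 early and 0.51 to 1.57 late (1.51 ± 0.17, adjusted p = 1.99e-05). RT1-M3-1, a class I histocompatibility gene, read 1.90 to 3.75 early and 3.87 to 5.10 late (1.46 ± 0.14, adjusted p = 4.68e-06). In each of the 3 genes an early series C array stood next to the lowest late array. The other genes higher late and named by size of change were Mettl15 (1.58), Prelp (1.41), Ssc5d (1.29), Nat8f1 (1.20), Tcirg1 (1.14), Sspn (1.10), Sp110 (1.05) and Gramd1b (1.02). They encode, in order, a mitochondrial ribosomal RNA methyltransferase, a matrix proteoglycan, a scavenger receptor protein, an acetyltransferase, a proton pump subunit of lysosomes, a dystrophin-associated membrane protein, an interferon-induced nuclear body protein and a sterol transfer protein.

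The 4 genes lower late without overlap were Kcne2, 1700020N15Rikl, Eny2 and Ctu2. Kcne2, an accessory subunit of potassium channels, read 3.31 to 4.18 early and 1.46 to 3.11 late (-1.04 ± 0.17, adjusted p = 0.000416). Eny2, a subunit of the SAGA and mRNA export complexes, read 5.87 to 6.61 early and 5.30 to 5.77 late (-0.67 ± 0.09, adjusted p = 4.47e-05). Ctu2, which thiolates the wobble base of transfer RNA, changed by -0.56 ± 0.10, and 1700020N15Rikl by -0.76 ± 0.12 (adjusted p = 0.000742 and 0.000386).

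The cold-inducible RNA-binding proteins were both lower late, against 6.04% of all genes. These genes are induced in cells by mild cooling. Rbm3 read 7.86 to 9.06 early (median 8.56) and 6.87 to 7.95 late (median 7.11). Only 1 early array, the 1 Hz array of series C at 2 h, fell below the highest late array, which was the 1 Hz array of series A at 24 h. Rbm3 was 2.36-fold lower late (-1.24 ± 0.09, adjusted p = 7.13e-07), and the differences within series A to D were -1.41, -1.43, -1.05 and -1.37. At 8 h it read 7.88 to 9.17 (median 8.10). Cirbp read 7.03 to 7.80 early (median 7.61) and 6.44 to 7.36 late (median 6.99), a change of -0.62 ± 0.10 (adjusted p = 0.000557). Its differences within series ran from -0.52 to -0.72. Neither gene passed the test for a difference between series (adjusted p = 0.628 for Rbm3 and 0.952 for Cirbp). Incubator temperature is not given array by array and its part was not tested.

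RNA-binding proteins of the hnRNP family, which package and splice nascent transcripts, were lower late at 8 of 17 tested, with none higher and a median of -0.30. The list was assembled after the values were seen, and 6.04% of all genes were lower late. Hnrnpdl read 3.42 to 4.15 early (median 3.68) and 2.60 to 3.85 late (median 2.92), a change of -0.78 ± 0.09 (adjusted p = 1.75e-05). Syncrip, Hnrnpab and Hnrnpk changed by -0.64 ± 0.17, -0.58 ± 0.12 and -0.54 ± 0.11 (adjusted p = 0.0139, 0.00268 and 0.00232). Of 16 SR proteins and CLK kinases, which select splice sites, 5 were lower and none higher, with Srsf6 at -0.50 ± 0.09 (adjusted p = 0.000995) and Srsf10 at -0.37 ± 0.10 (adjusted p = 0.0196). Without series D, 1 hnRNP gene and no SR or CLK gene was called, and only 155 of all 35699 probes were lower.

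Genes of immature neurons were lower late at 8 of 20 tested (40%, against 6.04% of all genes), with none higher. All 20 had a negative change (median -0.46). Dcx, the doublecortin of migrating neurons, read 7.47 to 8.62 early (median 7.75) and 7.14 to 7.61 late (median 7.30), a change of -0.49 ± 0.09 (adjusted p = 0.00122). Dpysl3 and Dpysl5, which guide growth cones, changed by -0.64 ± 0.20 and -0.61 ± 0.12, and the microtubule destabiliser Stmn1 by -0.60 ± 0.19 (adjusted p = 0.0313, 0.00218 and 0.0335). None of the 20 passed without series D, where only 155 of all 35699 probes were called lower. Tubb3, the neuronal beta tubulin, read 8.05 to 9.34 early and 7.11 to 9.27 late. Its changes within series disagreed in sign, 0.51 in series B and -1.41 in series D (adjusted p = 0.00892 for series by phase), beside a fitted change of -0.68 ± 0.20 (adjusted p = 0.0262).

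The tubulin list was assembled after the values were seen. Its genes were lower at 5 of 13 (38.5%) and higher at 1 (7.69%), beside 6.04% and 15.4% of all genes. The 1 higher, Tuba8, rose by 1.15 ± 0.20 (adjusted p = 0.000598). Tuba1c and Tubb5 changed by -0.62 ± 0.18 and -0.64 ± 0.18 (adjusted p = 0.0264 and 0.0215), but Tuba1c averaged over its 3 probes changed by 0.034, and tubulin genes are close enough in sequence that probes may read relatives. Axon guidance genes were lower at 5 of 28 (17.9%) and higher at 1 (3.57%), with a median of -0.27. Among the lower were the ephrin receptor Epha3 at -0.52 ± 0.10, the receptor Robo1 at -0.52 ± 0.16 and the semaphorin co-receptor Nrp2 at -0.48 ± 0.15 (adjusted p = 0.00213, 0.0314 and 0.0286). The netrin Ntn4 was higher (0.91 ± 0.17, adjusted p = 0.00119), with 2 of 13 early and 10 of 14 late arrays well above background. The neuronal cytoskeletal proteins Map1b and Mapt changed by -0.55 ± 0.11 and -0.44 ± 0.13 (adjusted p = 0.00228 and 0.0249). On a further list of neuronal cytoskeleton genes 2 of 12 were lower (16.7%) and none higher.

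Synaptic genes held few calls toward higher late. None of 25 presynaptic release genes passed (smallest adjusted p = 0.0628, 5 with an unadjusted p below 0.05), and 3 of 20 postsynaptic scaffold genes were lower (15.0%, against 6.04% of all genes), among them Baiap2 (-0.53 ± 0.12, adjusted p = 0.00379). Grin2c, an NMDA receptor subunit of mature brain, was the 1 of 7 NMDA genes higher late (14.3%, near the share of all genes), at 0.83 ± 0.10 (adjusted p = 2.08e-05). Of 13 GABA-A subunits 2 were higher late (15.4%, the share of all genes), among them the extrasynaptic subunit Gabrd at 0.29 ± 0.08 (adjusted p = 0.0193). The chloride importer Slc12a2 was lower (-0.34 ± 0.08, adjusted p = 0.00408), while its counterpart Slc12a5 read 7.52 to 8.39 early and 7.19 to 7.92 late (-0.04 ± 0.09, adjusted p = 0.811). The kainate receptor Grik1 was lower (-0.51 ± 0.15, adjusted p = 0.0228).

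Of 30 potassium channel genes 3 were higher (10%) and 4 lower (13.3%), and of 25 sodium and calcium channel genes 2 were higher and 2 lower (8.0% each way). Over all genes 15.4% were higher and 6.04% lower. Kcna1, an axonal potassium channel, changed by -0.52 ± 0.13, and its relative Kcna2 by 0.63 ± 0.16 (adjusted p = 0.0121 and 0.0112). Cacng3, an AMPA receptor auxiliary subunit, rose by 1.11 ± 0.16 (adjusted p = 0.000125). Among growth factor receptors the receptor kinase of GDNF family ligands, Ret (1.05 ± 0.18), and its co-receptors Gfra1 (0.72 ± 0.18) and Gfra2 (0.50 ± 0.14) were higher late and the neurotrophin receptor Ngfr was lower (-0.83 ± 0.24; adjusted p = 0.000598, 0.00847, 0.0191 and 0.0224). Pvalb, a calcium buffer of fast-spiking interneurons, rose by 1.37 ± 0.16 (adjusted p = 2.12e-05). It was the 1 higher gene of 14 on the interneuron and GABA synthesis list (7.14%). On that list 2 genes were lower (14.3%), and the median was -0.11. The peptide precursors Nts, Cck and Adcyap1 changed by -0.60 ± 0.10, -0.48 ± 0.13 and -0.75 ± 0.22 (adjusted p = 0.000439, 0.0127 and 0.0255). Of 19 neuropeptide genes 3 were lower (15.8%) and none higher.

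Cholesterol synthesis and uptake genes were lower late at 10 of 25 tested (40%, against 6.04% of all genes), but not in every series. None was higher, and the median was -0.55. The list medians within series were -1.11 in A, -0.97 in B, 0.35 in C and -0.85 in D, and 19 of the 25 genes passed the test for a difference between series (20.3% of all genes did). Hsd17b7, a sterol reductase, read 6.04 to 6.55 on early arrays of series A and B and 4.46 to 5.28 in series C and D. Late arrays read 4.47 to 5.15 in series A to C and 3.52 to 3.76 in series D. The change was -0.85 ± 0.20 (adjusted p = 0.0078), with 0.35 in series C (adjusted p = 0.00043 for series by phase).

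Hmgcs1, the synthase at the entry of the pathway, and the reductase Tm7sf2 changed by -0.71 ± 0.18 and -0.68 ± 0.11 (adjusted p = 0.0113 and 0.000469). With series C left out 19 of the 25 genes were called lower, with series D left out 1 was, and without series as a block none was.

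Activity-induced transcription factors also differed between series. Of 24 immediate-early genes 4 were lower late and none higher (median -0.30, with 6.04% of all genes lower), and list medians within series were -1.60 in A, -1.11 in B, 0.51 in C and 0.31 in D. The test for a difference between series was passed by 18 of the 24. Fos, a subunit of AP-1, read 1.37 to 3.51 on early arrays of series A, B and D and -1.34 to 0.04 on those of series C. Late arrays read -1.25 to 1.61 in series A to C and 2.75 to 3.21 in series D. Early series C thus overlapped the late arrays of series A to C, and late series D lay above every early array of its own series. Over all series the Fos change did not pass (-0.31 ± 0.50, adjusted p = 0.704), with -1.59, -3.01, 1.11 and 0.94 in series A to D (adjusted p = 0.00657 for series by phase).

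Egr1, a zinc finger factor, and Npas4, which responds to calcium entry, were lower late in series A and B as Fos was, while series C and D gave differences of smaller size. Egr1 differed by -3.63 in series A, -2.77 in B, 0.50 in C and 0.85 in D (adjusted p = 0.00855), and Npas4 by -3.24, -3.67, 0.64 and -0.16 (adjusted p = 0.0117). Neither passed as a change over all series (adjusted p = 0.354 and 0.147), and Npas4 was well above background on 9 of 13 early and 6 of 14 late arrays. The highest Fos, Egr1 and Npas4 values of all 27 arrays, at 3.51, 5.57 and 1.77, were on the series A array of iTBS at 2 h. The sham array of series A at 2 h read 4.11, 5.03 and 2.15, so a sham array reached levels of that size too. The orphan receptor Nr4a2 was lower late (-0.96 ± 0.22, adjusted p = 0.00523): early arrays read 6.52 to 7.71 in series A and B and 4.90 to 6.18 in series C and D, and late arrays 4.56 to 5.76. Its relative Nr4a3, the early-response gene Ier5 and the factor Srf changed by -0.83 ± 0.27, -0.39 ± 0.10 and -0.29 ± 0.10 (adjusted p = 0.0384, 0.00853 and 0.0403).

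Downstream products of activity were lower late at a minority of genes. Of 23 activity-induced effectors 4 were lower (17.4%, against 6.04% of all genes) and none higher, with the G-protein regulator Rgs2 at -0.72 ± 0.18 and the synaptic scaffold Homer1 at -0.24 ± 0.08 (adjusted p = 0.0117 and 0.0367). Arc, which trims AMPA receptors from synapses, read 1.96 to 5.69 early and 1.90 to 5.91 late (0.12 ± 0.16, adjusted p = 0.628), and Bdnf, the neurotrophin, 1.28 to 4.65 early and 1.03 to 3.71 late (-0.54 ± 0.22, adjusted p = 0.102). Early and late ranges overlapped for both genes, although 5 early Bdnf arrays lay above every late one. MAP kinase feedback genes were lower at 4 of 13 (30.8%), with the phosphatases Dusp4, Dusp5, Dusp14 and Dusp6 at -0.59, -0.45, -0.39 and -0.29 (adjusted p = 0.0307, 0.0482, 0.0487 and 0.0365). No effector or feedback gene was called without series D, where only 155 of all 35699 probes were lower. With so few calls over all probes, none in these lists says little about their genes.

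**Figure D2:**
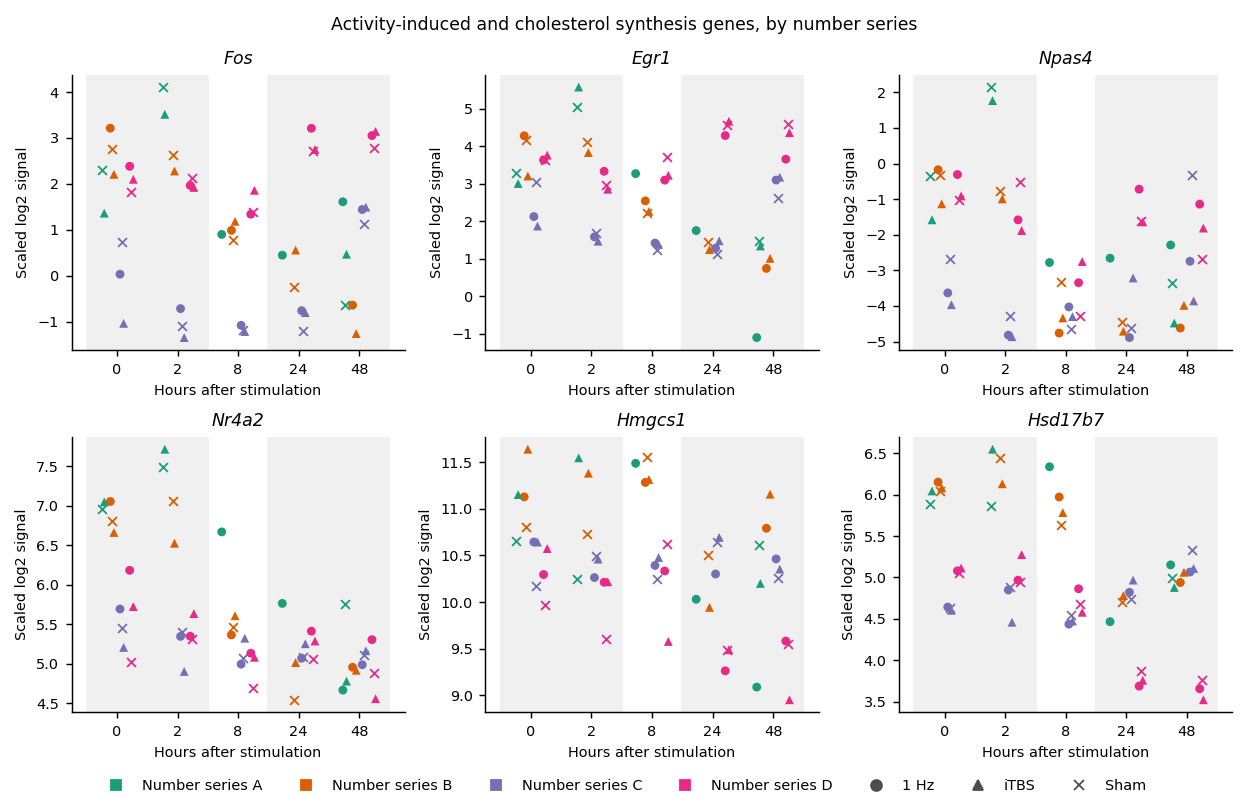
Scaled log2 signal of 4 activity-induced genes (Fos, Egr1, Npas4, Nr4a2) and 2 cholesterol synthesis genes (Hmgcs1, Hsd17b7) on each array against hours after stimulation, with colour for the number series, circles for 1 Hz, triangles for iTBS and crosses for sham, and grey bands for the early and late times. At 0 and 2 h Fos lay at 1.37 to 3.51 in stimulated series A, B and D and at -1.34 to 0.04 in series C.

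Across all genes, 2819 (20.3%) passed the test for a difference between series in the late minus early change. The share was high among immediate-early (75%), cholesterol (76%) and cell cycle genes (72.2%) and low among ribosomal proteins (1.43%), hnRNP proteins (5.88%) and astrocyte markers (13.3%), and neither cold-inducible gene passed. The marker of proliferation Mki67 differed by 0.66 in series A, 0.40 in B, -0.41 in C and -0.85 in D (adjusted p = 0.00161). This test was added after the values were seen.

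**Figure D3:**
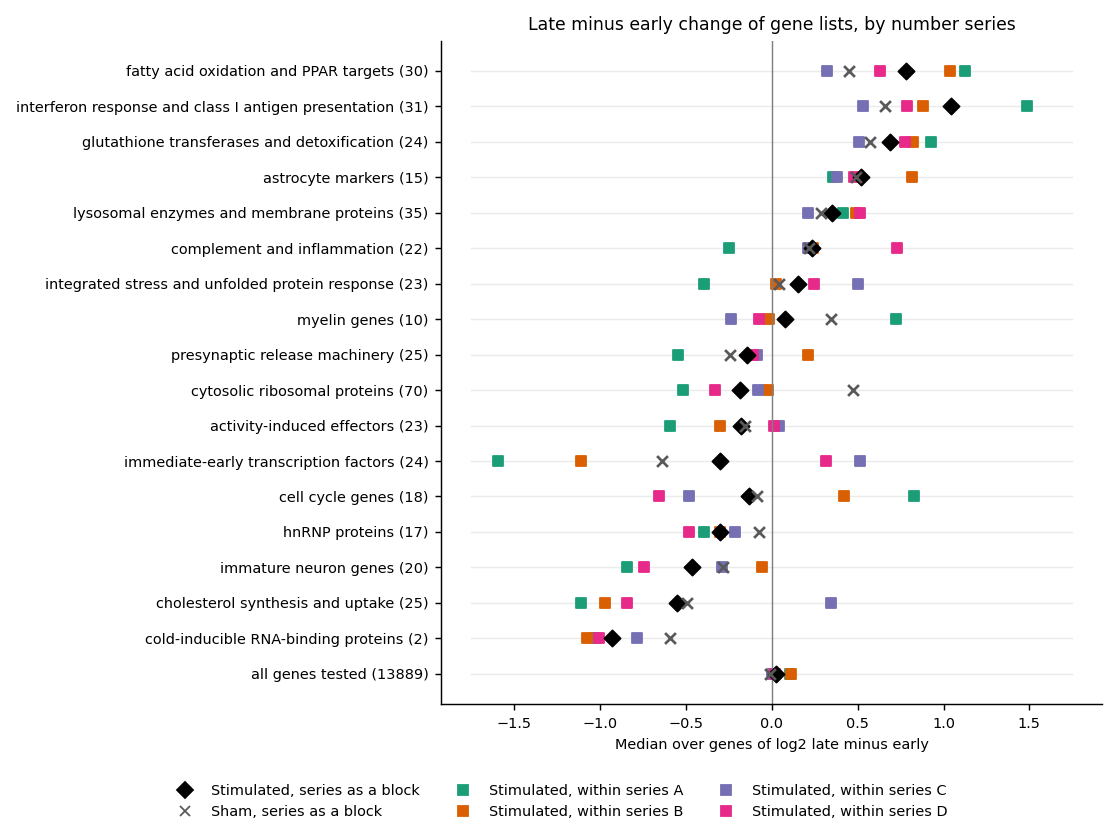
Median over genes of the log2 late minus early change (horizontal axis) for 17 gene lists and all genes, with the number of genes in brackets, black diamonds for stimulated arrays with series as a block, coloured squares for stimulated arrays within each series, and crosses for sham arrays. The 2 cold-inducible genes lay below 0 and the fatty acid oxidation list above 0 in all 4 series, whereas immediate-early medians ran from -1.60 in series A to 0.51 in series C.

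The 2 protocols were compared at the same times. Late minus early was called at 645 probes with 1 Hz (1.81%, of which 1.52% higher and 0.283% lower) and at 3836 with iTBS (10.7%, of which 6.94% higher and 3.8% lower), from 12 and 15 arrays. By gene these were 2.59% with 1 Hz (2.35% higher and 0.238% lower) and 13.6% with iTBS (10.4% higher and 3.18% lower). The difference between the protocols was called at 0 probes by limma, with 1191 at an unadjusted p below 0.05 and a smallest adjusted p of 1.00. The counts therefore do not show that the protocols differed. Gfap changed by 1.40 with 1 Hz and 1.70 with iTBS, Plin4 by 2.22 and 2.35, Dbp by 1.43 and 1.59, and Rbm3 by -1.13 and -1.35. The largest-ranked difference, at Shcbp1l, was -1.23 ± 0.26 (iTBS minus 1 Hz), and that gene was well above background on 4 of 13 early and 8 of 14 late arrays.

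Within the early times, 2 h minus 0 h gave 0 called probes by limma (562 at an unadjusted p below 0.05, smallest adjusted p = 0.432). Rbm3 differed by -0.34 ± 0.14 and Dbp by 0.07 ± 0.22 between these times (unadjusted p = 0.0209 and 0.752). Within the late times, 48 h minus 24 h gave 2 called probes (0.0056%), both higher at 48 h. Ntsr2, a neurotensin receptor of astrocytes, was higher at 48 h by 0.99 ± 0.14, and Derl3, a factor of ER-associated degradation, by 0.96 ± 0.14 (adjusted p = 0.0226 for both). Ntsr2 group means were 5.46 at 24 h and 6.37 at 48 h with 1 Hz and 5.98 and 6.72 with iTBS.

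Sham dishes changed over the same times. With 14 sham arrays in 1 fit with the stimulated arrays, late differed from early at 3416 probes (9.57%), 1763 higher (4.94%) and 1653 lower (4.63%). By gene 6.62% were higher and 4.46% lower. Of the 6156 probes called in stimulated dishes 92.8% had the same direction in sham, and 1978 were called there in that direction, which is 32.1% of the stimulated calls and 57.9% of the sham calls. The change in stimulated dishes minus that in sham dishes was called at 0 probes by limma (3778 at an unadjusted p below 0.05, smallest adjusted p = 0.191). In sham Gfap changed by 1.45 ± 0.22, Dbp by 1.41 ± 0.20, Angptl4 by 2.16 ± 0.33 and Serping1 by 1.97 ± 0.34 (adjusted p = 0.000146, 9.29e-05, 0.000184 and 0.000741). For Gfap and Dbp the stimulated minus sham difference was 0.11 ± 0.27 and 0.11 ± 0.25.

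Some genes differed more between stimulated and sham, without passing after adjustment. Rbm3 changed by -0.69 ± 0.13 in sham, and the difference was -0.55 ± 0.16 (adjusted p = 0.203). Irf7 changed by 0.11 ± 0.40 in sham, where late arrays ran from -3.59 in series A to 0.05 in series D, and the difference was 1.45 ± 0.50 (adjusted p = 0.299). Hmgcs1 changed by -0.07 ± 0.21 in sham, with a difference of -0.65 ± 0.27 (adjusted p = 0.396). The lists of Irf7 and Hmgcs1 moved in sham too, where 6.62% of all genes were higher and 4.46% lower. The interferon and class I list had a sham median of 0.66, with 15 of 31 genes higher and none lower. The cholesterol list had a sham median of -0.50, with 4 of 25 lower and none higher. There 16 of 30 fatty acid, 11 of 35 lysosomal, 10 of 24 detoxification and 7 of 15 astrocyte genes were higher, none lower.

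Cytosolic ribosomal protein genes had a median of -0.19 in stimulated dishes, with none of 70 called, and of 0.47 in sham dishes, with 32 called higher and none lower (6.62% and 4.46% of all genes). The stimulated median turned to 0.06 under quantile scaling and 0.05 under background correction by normexp. Rpl31 read 10.03 to 11.24 on early and 8.73 to 11.01 on late stimulated arrays, and 9.22 to 10.24 on early and 9.91 to 10.95 on late sham arrays. Its change was -0.35 ± 0.15 in stimulated and 0.58 ± 0.18 in sham dishes, a difference of -0.93 ± 0.22 (adjusted p = 0.191). Rpl39 and Rpsa differed by -0.82 ± 0.20 and -0.81 ± 0.20 (adjusted p = 0.191 for both). Subunits of respiratory complexes III and IV and of ATP synthase had medians of -0.23 in stimulated and 0.28 in sham dishes, with 1 of 32 lower in the former, Cox5a at -0.36 ± 0.11 (adjusted p = 0.0239). Ribosomal protein genes have many processed copies, and the share of these in the signals was not tested.

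**Figure D4:**
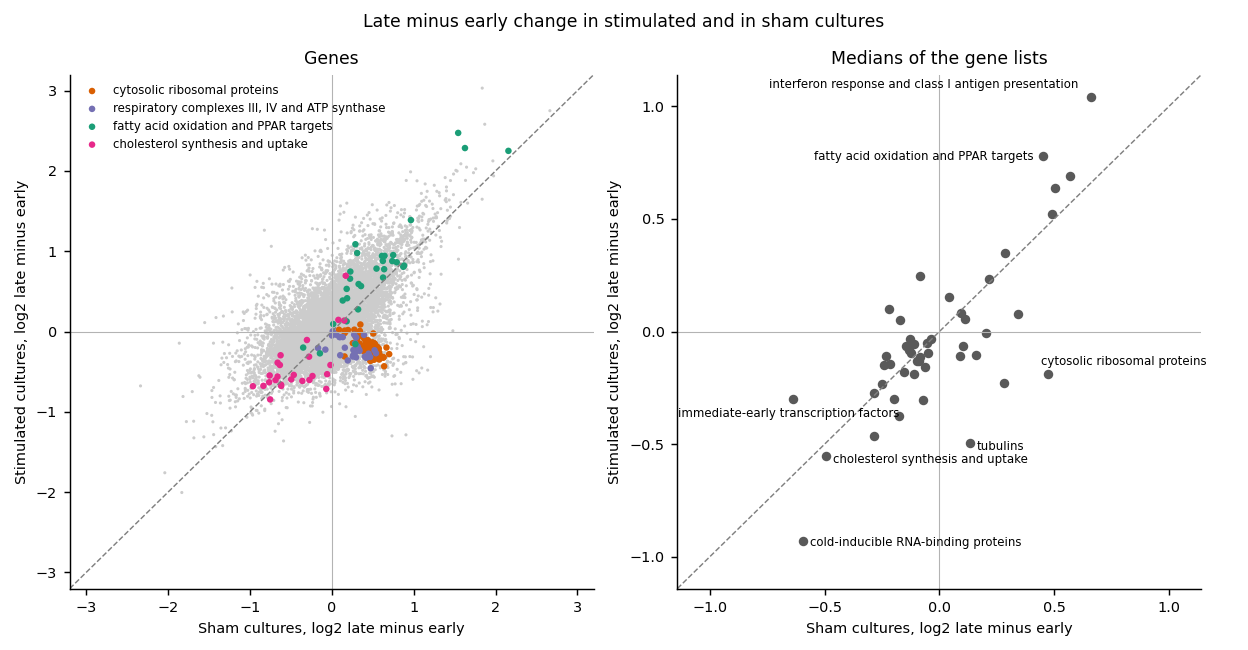
Log2 late minus early change in stimulated dishes (vertical axes) against that in sham dishes (horizontal axes), for 13889 genes with 4 lists in colour (left) and for the medians of the gene lists (right), with a dashed line where both are equal. The fatty acid oxidation genes had medians of 0.78 in stimulated and 0.45 in sham dishes, and the ribosomal protein genes, with medians of -0.19 and 0.47, lay mostly to the right of the dashed line.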

How the data were processed

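Cy3-labelled cRNA was hybridised to 56 rat 8x60K arrays and read with Agilent Feature Extraction 12.0.3.1. The deposited scanner files hold spot intensity, and per the file headers the processed intensity is background-subtracted and spatially detrended but not scaled between arrays; the 75th percentile ran from 1896 to 18416 on stimulated arrays. The authors also deposited a z score of each log10 intensity within its array. Here log2 processed signals were averaged per probe (spots with outlier marks and control spots left out). They were converted to z-scores within each array as in the study's methods and multiplied by the median array SD of log2 signal (4.06). A z-score of log10 signal over all spots of an array differed from the deposited z score by at most 0.005. The z-scores used in the fits were taken over averaged probes and were not compared with the deposited ones probe by probe. Probes well above background on at least 3 of 55 arrays were kept (35699 of 45598). Only 46.3% of probes carry a gene symbol, so 13889 genes were named, each by its brightest probe. The number of arrays limits the precision.

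limma 3.58.1 in R 4.3.3 was fitted to 8 group means with number series as a fixed block (16 residual degrees of freedom), and with sham arrays added (41 arrays) for sham. Tests were two-sided with Benjamini-Hochberg adjustment over all probes, threshold 0.05. All ± values beside a change are standard errors of that fit. The number series were read from the sample numbers in the labels, which do not say what they stand for. Arrays of the same series but different groups deviated together (mean correlation 0.383, against -0.129 between series). A bound ("at least N-fold") sets a bright group's mean against the lowest signal that was well above background. Named genes were up to 12 each way without overlap of the phases, up to 4 called genes per list, a list of well-known activity, clock and cell type genes, and the top genes of each smaller comparison. The comparison, members, lists and tests were chosen with earlier results of these data known, and 6 lists, 2 motifs and the series-by-phase test after the values were seen. The script for the fits was tested on simulated data. Alternatives were other scalings, filters, blocks, arrays left out, the deposited z scores and the study's criteria. Promoters came from RefSeq (GRCr8, 33469 promoters). A few genes are not reported here.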

Additional observations from a re-analysis of the deposited data

Results flagged for a closer look

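In the groups with 4 arrays, the highest or lowest array was compared with the others for 39 genes (156 tests). An array stood apart in 11 of these tests, or 7.05%, where chance sets apart about 1 in 20. The genes share arrays and the series differ in level, so these tests are not independent and the shares cannot be compared strictly. At 0 h of iTBS the series C array read 5.70 for Dbp against 4.16 to 4.19 in the others, and 0.49 for 1700020N15Rikl against 0.94 to 0.99. In the same group the series D array read 8.62 for Dcx against 7.58 to 7.75 and 6.60 for Eny2 against 6.12 to 6.19, and the series B array read -1.84 for Mettl15 against -0.63 to -0.47. At 2 h of iTBS the series C array read 1.08 for Upp1 against -1.29 to -0.92 and 7.08 for Cirbp against 7.57 to 7.64, and the series A array read 1.83 for Sspn against 2.17 to 2.23. At 48 h of iTBS the series B array read 1.30 for Upp1 against 1.55 to 1.59 and 0.03 for Mettl15 against 0.53 to 0.61, and the series D array read 3.58 for Gramd1b against 2.98 to 3.08.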

How the results depend on the processing

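For late minus early in stimulated dishes, the count of 6156 called probes became 1870 without the series block, 1195 with slide and series as fixed blocks, 1097 with the bad-grid array kept, 2951 at an adjusted p under 0.01 and 704 by the study's criteria. Within series A alone it was 0, in B 8152, in C 442 and in D 9883, and it was 0 within slide 2. Within slide 6 it was 8514. On that slide the early arrays were all of series C and the late arrays all of series D. That fit had no series term, so series and phase cannot be told apart in it. Leaving out series C gave 4066 and series D 773, and leaving out 1 array gave 3188 to 6678. The 1 Hz count (645) became 0 without the series block, 134 with slide and series, 969 by quantile scaling, 1196 by normexp, and 223, 216 and 6 without series B, C and D. Leaving out 1 array gave 56 to 808, with 350 without 1 Hz 0 h replicate 1, 288 without 1 Hz 0 h replicate 3, 56 without 1 Hz 2 h replicate 3 and 141 without 1 Hz 24 h replicate 3. The iTBS count (3836) became 579 without the series block, 1279 with slide and series, and 2383, 472 and 390 without series A, B and D. Leaving out 1 array gave 1643 to 4984, with 2141 without iTBS 0 h replicate 1, 1643 without iTBS 24 h replicate 1, 1857 without iTBS 24 h replicate 3 and 2159 without iTBS 48 h replicate 1. The sham count (3416) became 419 without the series block, 998 with slide and series, and 2069, 1434 and 178 without series A, B and D. Leaving out 1 array gave 1810 to 4518, with 2052 and 2159 without replicates 1 and 3 of sham at 24 h, and 1837 and 1810 without replicates 1 and 3 at 48 h. The protocol difference (0) became 1 without series C, 3 without series D and 0 to 12 without 1 array. The 2 h minus 0 h count (0) became 15 with slide and series, 4 without series C, 9 without series D and 0 to 22 without 1 array. The 48 h minus 24 h count (2) became 0 without the series block, on the deposited z scores and without series A, B, C or D. It was 1 by quantile scaling, 16 by normexp, 16 with slide as a random block, 7 with slide and series and 0 to 19 without 1 array. Stimulated minus sham gave 0 to 1. The cause of these shifts was not tested.

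Replicate numbers in the labels differ from the number series. With the replicate block in place of the series, counts were 3257 for all stimulated dishes, 0 for 1 Hz, 1973 for iTBS, 0 for 48 h minus 24 h and 1871 for sham. Samples with the same replicate number had a mean correlation of 0.194, which gives a hint and no pairing by design. Scaling to the 75th percentile moved the share of called probes higher late from 64.1% to 53.7% in stimulated dishes, from 64.6% to 48.4% with iTBS and from 51.6% to 63.7% in sham, where the deposited z scores gave 36.5%. The Tuba1c change turned to 0.034 as the mean over all its probes. Of 145 named genes past the threshold, 97 were not called without series D, 91 without the series block and 103 with slide and series. The part of signal over background in these results was not tested, and probes near background carry the least certain changes. Series left out and series by phase were chosen after seeing the data.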
